A study of Homo sapiens with 6 samples.

Results

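The amino acid transporter transcripts described here are those of 10 genes chosen by symbol: SLC7A11, SLC7A5, SLC3A2, SLC7A1, SLC1A4, SLC1A5, SLC38A1, SLC38A2, SLC6A9 and SLC43A1. They are 10 of the 29982 gene symbols in the table, and all 10 were among the 13287 genes with a mean of at least 1 FPKM (fragment counts scaled for transcript length and for sequencing depth) over the 6 libraries. RNA-Seq was performed on OVCAR5, an established ovarian cancer cell line, after vehicle (DMSO) or 10 μM SpiD7, a spirocyclic dimer made to modify cysteine residues covalently. The vehicle and the 2 h treatment had 2 libraries each, whereas the 6 h and the 12 h treatment had 1 library each. The labels state no duration for the vehicle and no difference in genotype between the groups, and all libraries come from 1 cell line grown in the same high-glucose medium with serum. Whether the replicates were separate cultures is not stated, so the p-values measure the spread between these libraries only.

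Cells import amino acids through families of membrane carriers. SLC3A2, the heavy chain also called CD98, is no carrier by itself: it brings light chains such as SLC7A11 and SLC7A5 to the plasma membrane. SLC7A11 exchanges extracellular cystine for glutamate and so feeds glutathione synthesis, and SLC7A5 exchanges leucine and other large neutral amino acids for glutamine. Several of these genes are textbook targets of ATF4, the transcription factor translated when eIF2α is phosphorylated during ER stress or amino acid shortage, and SLC7A11 is also a known target of NRF2, the regulator of the oxidative stress response.

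The table holds the second DMSO and the second 2 h library only inside a group mean, so that both were recovered here by subtraction and are called the recovered libraries. The single gene MIR6723 made up 25.0% and 21.8% of all FPKM in the recovered DMSO and 2 h libraries, against 5.04% to 9.19% in the other 4. Relative depth ranged from 0.769 to 1.115 of the first DMSO library, and 1792 of the 13287 genes differed more than 2-fold between the DMSO libraries. Epithelial markers were abundant (sum of 6 genes 3151 to 4721 FPKM per library). Of the ovarian lineage markers, PAX8 was at 1.64 to 2.12 FPKM and MSLN at 2.95 to 3.59 FPKM, while WT1 and MUC16 stayed under 1 FPKM in every library. Of 4 leukocyte markers, 2 were listed at 0 in every library, and the leukocyte sum was 3.12 to 9.37 FPKM, which was almost all CD14. The fibroblast marker sum was 2.91 to 6.60 FPKM. The endothelial marker sum was 11.5 and 8.31 FPKM in the recovered libraries and 0.441 to 1.20 FPKM in the others, mostly as PECAM1. The part of these differences in the results was not tested.

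In DMSO the transporters formed 3 levels that did not overlap. SLC3A2 (158.5 ± 65.5 FPKM, SD, n = 2), SLC7A5 (131.5 ± 52.6), SLC1A5 (108.7 ± 14.3) and SLC38A2 (93.6 ± 14.9) were the abundant members. SLC38A1 (34.95 ± 10.2), SLC7A1 (25.5 ± 11.5) and SLC7A11 (14.8 ± 10.4) were intermediate, and SLC1A4 (2.59 ± 0.907), SLC43A1 (2.45 ± 0.262) and SLC6A9 (1.80 ± 0.933) were low. Within each level, the ranges of members next to each other in this order overlapped. Compared within a library, SLC3A2 was above SLC7A5, SLC38A1 above SLC7A1 and SLC7A1 above SLC7A11 in both DMSO libraries. The other neighbours changed order between the DMSO libraries. Some members further apart had ranges that did not overlap: SLC3A2 lay above SLC38A2, and SLC38A1 above SLC7A11, whichever DMSO libraries were compared. SLC3A2 stood above all but 4.34% of the genes tested, whereas 89.5% of them were higher than SLC6A9. Of the 10 members, 8 had a lower value in the recovered DMSO library than in the first, against 54.1% of all genes tested, with a median log2 difference of -0.77 against -0.056. The gap was widest for SLC7A11, at 2.98-fold, and next for SLC6A9, at 2.15-fold, and only these 2 members differed more than 2-fold between the DMSO libraries. SLC38A2 and SLC43A1 were the exceptions that were higher in the recovered library.

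**Figure D1:**
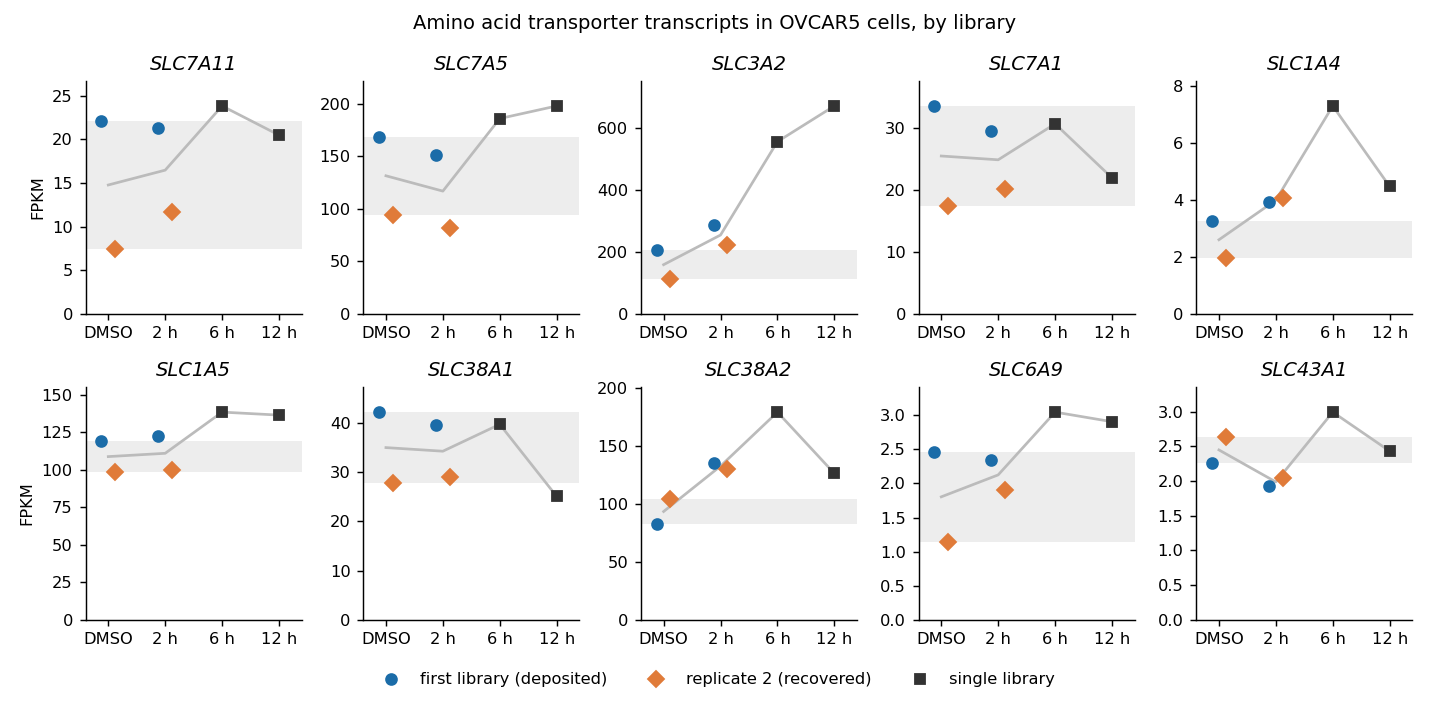
FPKM of each of the 10 transporter genes (y axis, linear, from 0) in each of the 6 libraries (x axis: DMSO and 2, 6 and 12 h of 10 μM SpiD7). Circles are the first libraries, diamonds the recovered ones and squares the single 6 h and 12 h libraries, the grey band spans the DMSO libraries and the line joins group means. SLC3A2 lay above the band in every SpiD7 library and was highest at 12 h (672.2 FPKM), SLC1A4 and SLC38A2 lay above it in every SpiD7 library and were highest at 6 h, and most points of SLC7A11, SLC7A1 and SLC38A1 lay within the band or close to its edges.

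The comparison asks how the transporter transcripts of SpiD7-treated cells differ from those of vehicle-treated cells at each time. By limma on log2(FPKM + 0.1) over all 13287 genes, none of the 10 members passed a Benjamini-Hochberg adjusted p of 0.05 at 2 h, 6 h or 12 h (0, 0 and 0 members), where 0.0226%, 0.294% and 0.339% of all genes passed. At an unadjusted p under 0.05 there were 0, 3 and 1 members at 2 h, 6 h and 12 h, beside 2.84%, 5.55% and 9.19% of all genes. The spread in this fit came from the DMSO and 2 h libraries alone, and the single 6 h and 12 h libraries were assumed to vary like them. In size, 0, 2 and 1 members were more than 2-fold above the mean of both DMSO libraries at 2 h, 6 h and 12 h, beside 2.32%, 5.66% and 6.48% of all genes. No member was more than 2-fold below it at any time (0.662%, 3.1% and 3.76% of all genes), nor below the first DMSO library alone (1.01%, 0.993% and 4.03%) or the recovered one alone (2.92%, 7.77% and 7.56%). The median log2 difference of the members was 0.16 after 2 h, 0.69 after 6 h and 0.55 after 12 h, and that of all genes tested was -0.0082, 0.033 and -0.051.

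These medians depended on which DMSO library served as the reference, since most members were low in the recovered one. Against the first DMSO library alone, the members' medians were -0.20, 0.26 and 0.21 at 2 h, 6 h and 12 h, and 0, 3 and 1 members were more than 2-fold higher, beside 5.59%, 6.28% and 8.21% of all genes. Against the recovered DMSO library alone, the medians were 0.42, 0.90 and 0.77, and 2, 4 and 5 members were more than 2-fold higher, beside 2.69%, 7.76% and 7.01% of all genes. With neither recovered library, an alternative added after the data were seen, the medians were -0.061, 0.26 and 0.21 and the counts 0, 3 and 1. SLC3A2 was the only member more than 2-fold higher at both 6 h and 12 h against either DMSO library. In bulk RNA, a transcript level per cell and the share of cells that carry it cannot be told apart.

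**Figure D2:**
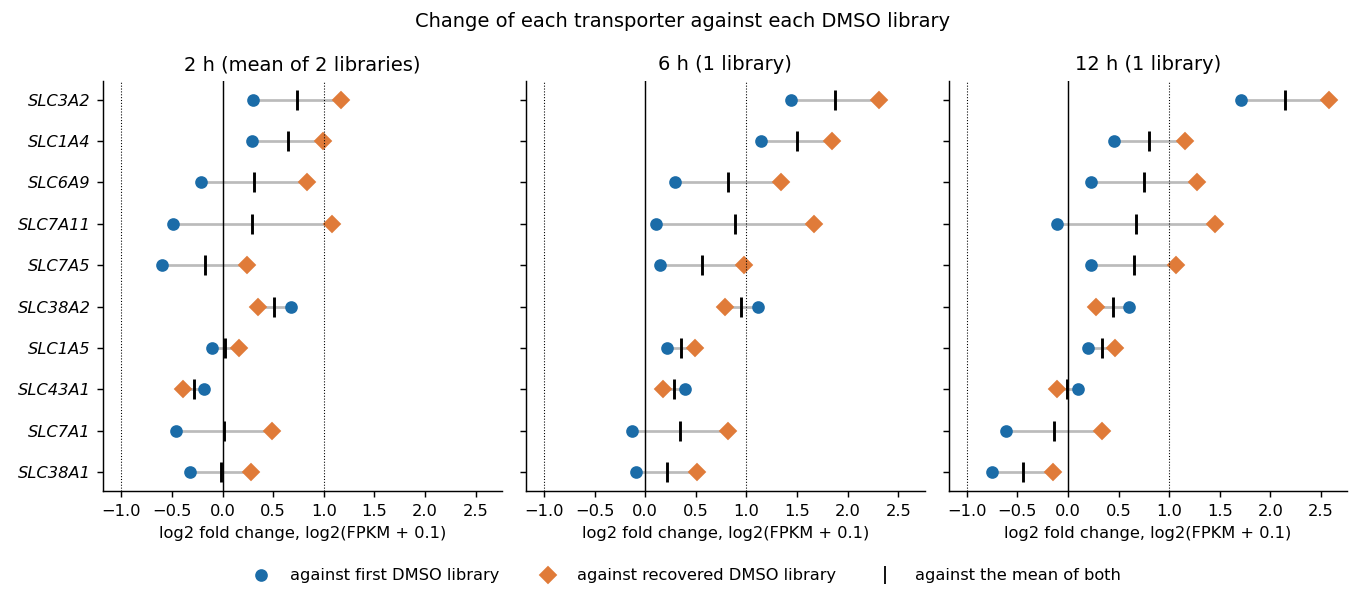
Log2 difference of each transporter (x axis, from log2(FPKM + 0.1)) at 2 h (mean of 2 libraries), 6 h and 12 h (1 library each) against the first DMSO library (circles), the recovered DMSO library (diamonds) and the mean of both (ticks), with dotted lines at 2-fold. SLC3A2 and SLC1A4 passed the upper line at 6 h and SLC3A2 at 12 h against either DMSO library, whereas for SLC7A11 at 12 h the references gave -0.11 and 1.45.

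At each time the libraries were also placed against the range of the DMSO libraries. Of the members, 3 after 2 h, 8 after 6 h and 6 after 12 h had every library of that time above both DMSO libraries, beside 13.7%, 31.6% and 30.1% of all genes. In the pairs of the same replicate number, 4 members were higher at 2 h than DMSO in both (31.5% of all genes), 2 were lower in both (34.4%) and 4 had opposite signs (32.9%). Below both DMSO libraries lay 1, 0 and 1 members at 2 h, 6 h and 12 h, beside 8.1%, 29.2% and 35.6% of all genes. SLC3A2, SLC1A4 and SLC38A2 had all 4 SpiD7 libraries above both DMSO libraries, which held for 8.93% of all genes. Of the 10 members, 8 were higher at 6 h than at 12 h (56.7% of all genes), and the other members, SLC3A2 and SLC7A5, were highest at 12 h. These time points are compared with the same DMSO libraries, so their differences are not independent.

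SLC3A2 lies on chromosome 11 (62856102 to 62888875, plus strand, GENCODE annotation of hg38), a protein-coding gene with 15 merged exons. Its FPKM was 204.8 and 112.2 in DMSO (first and recovered library, in this order here and for the genes that follow), 287.2 and 221.8 after 2 h, 556.7 after 6 h and 672.2 after 12 h. Every SpiD7 library was above both DMSO libraries, and each later time was above the earlier ones. The log2 difference from both DMSO libraries was 0.73 ± 0.39 (SE) at 2 h (adjusted p = 1), 1.88 ± 0.48 at 6 h (adjusted p = 0.746, unadjusted 0.0222) and 2.15 ± 0.48 at 12 h (adjusted p = 0.467, unadjusted 0.0148). At 12 h this was 4.43-fold, and 1.71% of the genes tested (227 genes) were further above DMSO. The 12 h value was 3.28-fold the first DMSO library and 5.99-fold the recovered one. Within the treated series, the 12 h library was 1.41 above the mean of the 2 h libraries on the log2 scale (adjusted p = 0.812), in a contrast where 0.361% of all genes passed and no member did. No member passed between 2 h and 6 h (0.256% of all genes) or between 6 h and 12 h (0.399%) either.

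SLC1A4, a sodium-dependent carrier of alanine, serine and cysteine also known as ASCT1, lies on chromosome 2 (64988477 to 65023865, plus strand) with 10 merged exons. It was at 3.23 and 1.95 FPKM in DMSO, 3.91 and 4.05 FPKM after 2 h, 7.29 FPKM after 6 h and 4.46 FPKM after 12 h. The 4 treated libraries stood above both DMSO libraries, with the peak at 6 h. The log2 difference was 0.64 ± 0.31 (SE) at 2 h, 1.498 ± 0.38 at 6 h (2.82-fold, adjusted p = 0.741, unadjusted 0.0213) and 0.80 ± 0.38 at 12 h. Against the first DMSO library alone, the 6 h value was 2.22-fold and the 12 h value 1.37-fold. The paralog SLC1A5 (ASCT2, chromosome 19, 46774883 to 46788594, minus strand), a main entry route of glutamine, was abundant and nearly level: 118.9 and 98.6 FPKM in DMSO, 122.4 and 99.5 after 2 h, 138.4 after 6 h and 136.4 after 12 h. Its 6 h and 12 h libraries were above both DMSO libraries by a small margin, with log2 differences of 0.35 ± 0.26 and 0.33 ± 0.26.

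SLC38A2 (SNAT2, chromosome 12, 46358189 to 46372867, minus strand, 14 merged exons) carries small neutral amino acids together with sodium and is known to be induced when amino acids run short. Its FPKM was 83.1 and 104.1 in DMSO, 135.4 and 130.3 after 2 h, 179.5 after 6 h and 126.5 after 12 h. All treated libraries exceeded both DMSO libraries, and the 2 h replicates were close to each other. The log2 difference was 0.51 ± 0.20 (SE) at 2 h, 0.95 ± 0.24 at 6 h (adjusted p = 0.746, unadjusted 0.0223) and 0.44 ± 0.24 at 12 h. Unlike SLC3A2 and SLC1A4, it was further above the first DMSO library (2.16-fold at 6 h) than above the recovered one (1.72-fold). Its relative SLC38A1 (SNAT1, chromosome 12, 46183063 to 46270017, minus strand) was at 42.15 and 27.75 FPKM in DMSO, 39.5 and 28.9 after 2 h, 39.7 after 6 h and 25.0 after 12 h. The 12 h library was the lowest of the 6 and lay below both DMSO libraries, with a log2 difference of -0.45 ± 0.39 (adjusted p = 0.796).

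Promoter windows are shown for SLC3A2, SLC1A4 and SLC38A2, the members above DMSO in every treated library. SLC7A1 is shown because its window held the same motif cores although its level stayed within the DMSO range. SLC3A2 has 3 windows and SLC1A4 has 2, and for each only the start that held a match is shown. SLC3A2 starts 1 and 2 and SLC1A4 start 1 held no match. Which start these cells use was not tested. The windows are those of RefSeq on GRCh38.p14, from 250 bases before to 50 bases after a transcript start. Sequences are written 5′ to 3′ on the gene's strand, and capitals mark matches to TGATGNAA, the core of a C/EBP-ATF response element, or to TGACNNNGC, the core of an antioxidant response element, on either strand.
SLC3A2 (start 3, chr11:62881449-62881748, plus strand): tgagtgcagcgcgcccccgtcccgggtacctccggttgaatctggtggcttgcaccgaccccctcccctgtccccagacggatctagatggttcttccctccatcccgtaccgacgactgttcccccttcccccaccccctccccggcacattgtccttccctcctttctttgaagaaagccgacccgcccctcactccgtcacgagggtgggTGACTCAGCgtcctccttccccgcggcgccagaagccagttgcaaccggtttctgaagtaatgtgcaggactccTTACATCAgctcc
SLC1A4 (start 2, chr2:64989149-64989448, plus strand): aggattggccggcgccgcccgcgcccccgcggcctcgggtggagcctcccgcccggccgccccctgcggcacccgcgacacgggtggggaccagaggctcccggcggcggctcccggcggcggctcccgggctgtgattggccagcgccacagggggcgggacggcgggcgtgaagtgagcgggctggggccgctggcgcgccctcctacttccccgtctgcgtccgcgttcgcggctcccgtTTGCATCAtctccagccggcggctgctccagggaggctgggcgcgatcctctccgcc
SLC38A2 (chr12:46372724-46373023, minus strand): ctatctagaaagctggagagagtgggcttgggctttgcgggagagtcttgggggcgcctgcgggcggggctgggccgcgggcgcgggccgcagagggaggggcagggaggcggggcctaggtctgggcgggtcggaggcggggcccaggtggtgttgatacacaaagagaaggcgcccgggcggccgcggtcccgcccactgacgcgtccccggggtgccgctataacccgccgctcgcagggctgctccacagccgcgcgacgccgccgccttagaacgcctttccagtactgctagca
SLC7A1 (chr13:29595639-29595938, minus strand): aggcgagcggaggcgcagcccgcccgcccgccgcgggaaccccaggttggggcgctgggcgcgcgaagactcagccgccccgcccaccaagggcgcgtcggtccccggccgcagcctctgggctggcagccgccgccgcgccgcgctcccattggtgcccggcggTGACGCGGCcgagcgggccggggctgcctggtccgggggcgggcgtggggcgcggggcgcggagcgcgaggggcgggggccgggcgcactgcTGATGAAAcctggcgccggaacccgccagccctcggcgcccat

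The window of SLC3A2 start 3 held TGACTCAGC at -37 to -29 and, on the opposite strand, TTACATCA at 38 to 45 after the start. The window of SLC1A4 start 2 held TTGCATCA on the opposite strand across the start, and the SLC38A2 window held neither core. Windows were matched by symbol for 9 members, all but SLC7A11, with 16 starts among them. TGATGNAA occurred in 5 windows of 5 members (SLC3A2, SLC7A1, SLC1A4, SLC1A5 and SLC38A1), beside 3.62% of the 35116 windows of all genes. TGACNNNGC occurred in 4 windows of 4 members (SLC7A5, SLC3A2, SLC7A1 and SLC1A5), beside 13.3%. The E-box CACGTG, searched as a binding sequence of MYC, occurred in 3 windows of 3 members (SLC7A5, SLC1A5 and SLC43A1), beside 7.26%. No matches overlapped each other. A match is a run of letters and not evidence of binding, and members with several starts had several chances of one. Of the 5 members with the C/EBP-ATF core, SLC3A2 and SLC1A4 were above DMSO in every treated library, while SLC7A1, SLC1A5 and SLC38A1 were not. Whether the motif bears on these levels was not tested.

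**Figure D3:**
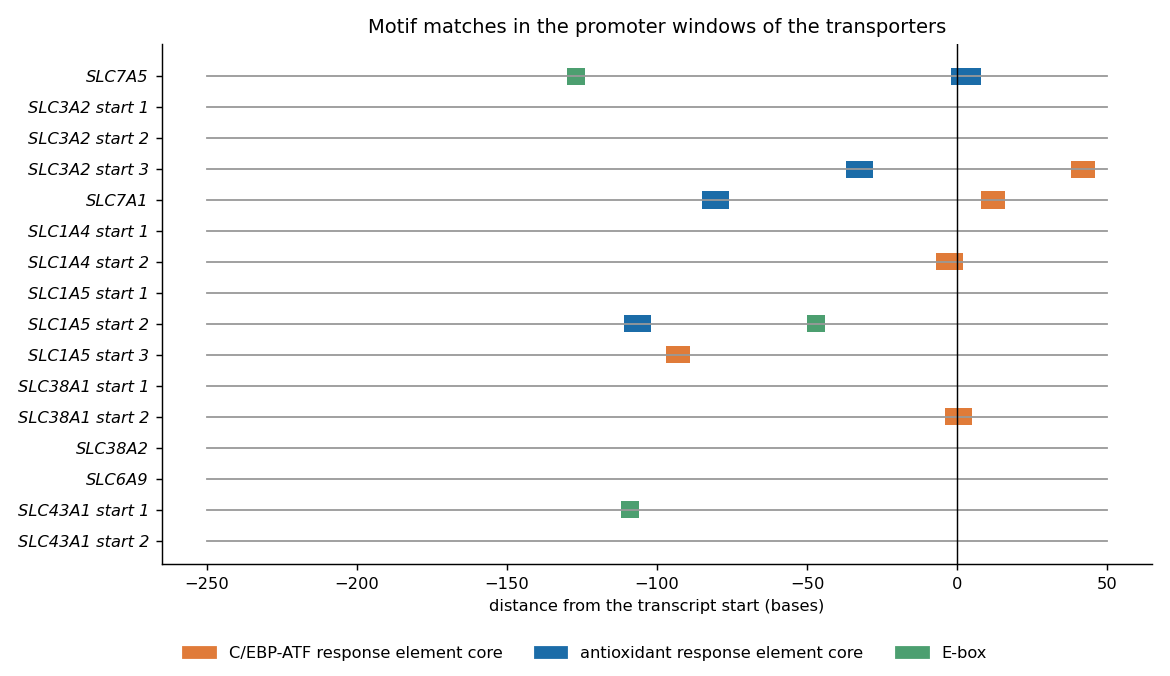
Matches to the 3 motifs (colored blocks) in the 16 promoter windows of 9 transporters (rows), by distance from the transcript start in bases (x axis, from 250 before to 50 after). The C/EBP-ATF core stood in 5 windows, those of SLC3A2 (start 3), SLC7A1, SLC1A4 (start 2), SLC1A5 (start 3) and SLC38A1 (start 2), and 8 windows held no match.

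The light chains stood closer to their DMSO levels than the heavy chain did. SLC7A5 (LAT1, chromosome 16, 87830023 to 87869488, minus strand, 11 merged exons) was at 168.6 and 94.3 FPKM in DMSO, 151.7 and 81.95 after 2 h, 186 after 6 h and 198 after 12 h. The 6 h and 12 h libraries were above both DMSO libraries, but the first DMSO library was close to them, at log2 differences of 0.14 and 0.23. Against both DMSO libraries the log2 difference was -0.18 ± 0.49 (SE) at 2 h, 0.56 ± 0.60 at 6 h and 0.65 ± 0.60 at 12 h (adjusted p = 0.804). SLC7A11 (xCT, chromosome 4, 138164097 to 138242349, minus strand, 12 merged exons) was at 22.1 and 7.42 FPKM in DMSO, 21.3 and 11.65 after 2 h, 23.85 after 6 h and 20.5 after 12 h. The treated libraries except the recovered 2 h one were near the first DMSO library, and the recovered DMSO library was the lowest of all. The log2 difference from both was 0.67 ± 0.85 at 12 h (adjusted p = 0.857), and it was -0.11 against the first and 1.45 against the recovered library.

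The ratio of light to heavy chain within a library, which no scaling of whole libraries alters, was lower after treatment for both pairs. SLC7A5 stood at 0.823 and 0.840 of the SLC3A2 FPKM in the DMSO libraries, 0.528 and 0.3695 after 2 h, 0.334 after 6 h and 0.295 after 12 h. Each treated library was below both DMSO libraries. On the log2 scale, the difference from the mean of the DMSO libraries was -0.91 at 2 h (mean of both libraries), -1.32 at 6 h and -1.497 at 12 h. The DMSO libraries were close to each other on that scale (-0.28 and -0.25), but the 2 h libraries were not (-0.92 and -1.435). SLC7A11 stood at 0.108 and 0.0661 of SLC3A2 in DMSO, 0.0742 and 0.0525 after 2 h, 0.0428 after 6 h and 0.0305 after 12 h. The 6 h and 12 h ratios were below both DMSO values, and the first 2 h ratio was within their range. Between the light chains, SLC7A11 to SLC7A5, the ratio was 0.131 and 0.0787 in DMSO and 0.1035 to 0.142 in the treated libraries. The 6 ratios computed are given as descriptions, with no test.

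The other pairs were compared in the same way. SLC1A4 stood at 0.0272 and 0.0198 of SLC1A5 in DMSO, 0.0320 and 0.0407 after 2 h, 0.0527 after 6 h and 0.0327 after 12 h, and every treated library exceeded both DMSO libraries. SLC38A2 stood at 1.97 and 3.75 times SLC38A1 in DMSO, 3.43 and 4.50 after 2 h, 4.525 after 6 h and 5.05 after 12 h, and here the first 2 h library fell inside the DMSO range. The DMSO values of that ratio themselves differed widely, with an SD of 0.66 on the log2 scale. SLC7A1 to SLC7A5 was 0.199 and 0.185 in DMSO, 0.195 and 0.246 after 2 h, 0.165 after 6 h and 0.111 after 12 h, so that the later libraries were below both DMSO libraries.

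**Figure D4:**
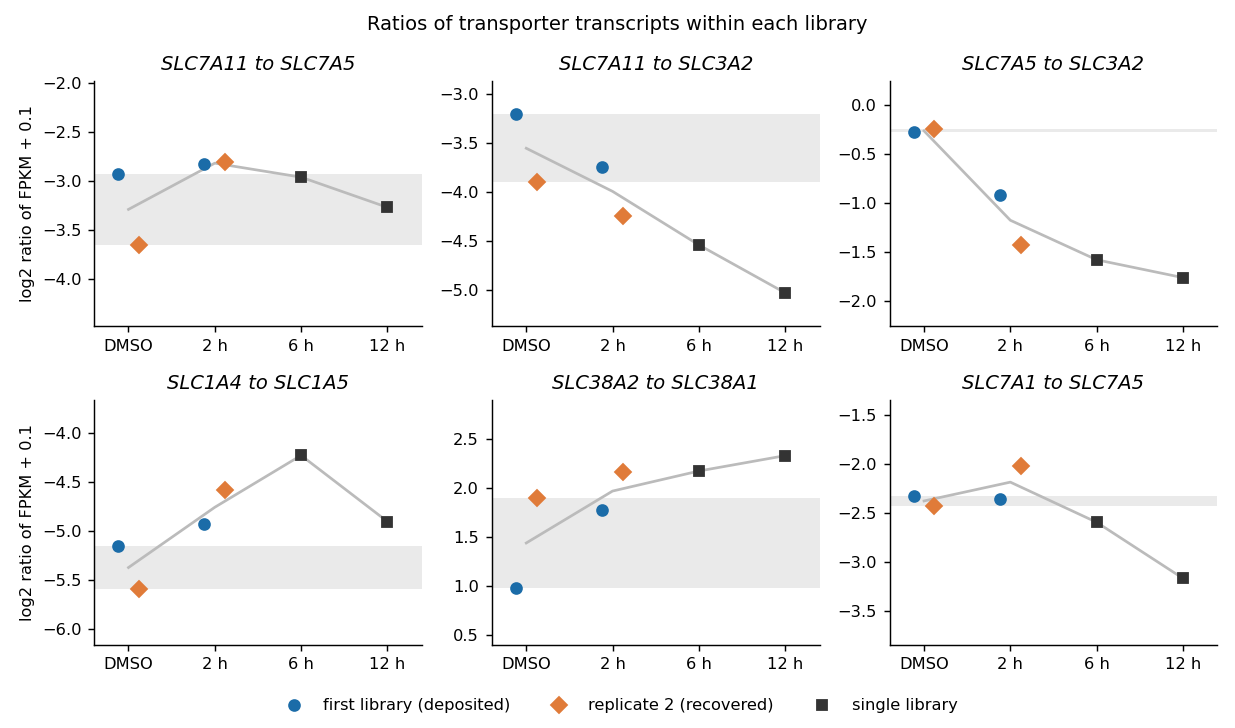
Log2 ratio of FPKM + 0.1 (y axis, 2.5 units high in each panel) of 6 pairs of transporter genes within each library (x axis: DMSO and 2, 6 and 12 h of SpiD7), with symbols as in the plot of FPKM by library and the grey band spanning the DMSO libraries. SLC7A5 to SLC3A2 was below the DMSO band in all 4 SpiD7 libraries and SLC1A4 to SLC1A5 was above it in all 4.

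The remaining members showed small differences. SLC7A1 (CAT1, chromosome 13, 29509410 to 29595688, minus strand), which imports arginine and lysine without SLC3A2, was at 33.6 and 17.4 FPKM in DMSO, 29.6 and 20.2 after 2 h, 30.7 after 6 h and 22.0 after 12 h. All 4 treated libraries lay between the DMSO libraries. SLC6A9 (GLYT1, chromosome 1, 43991500 to 44031467, minus strand), a sodium- and chloride-dependent glycine carrier, was at 2.46 and 1.14 FPKM in DMSO, 2.34 and 1.91 after 2 h, 3.05 after 6 h and 2.91 after 12 h. The later libraries were above both DMSO libraries, with log2 differences of 0.82 ± 0.54 (SE) and 0.75 ± 0.54. They were 2.53-fold and 2.42-fold the recovered DMSO library, but 1.23-fold and 1.17-fold the first. SLC43A1 (LAT3, chromosome 11, 57484534 to 57515786, minus strand), which carries leucine and other branched-chain amino acids without sodium, was at 2.27 and 2.64 FPKM in DMSO, 1.93 and 2.05 after 2 h, 2.996 after 6 h and 2.43 after 12 h. Both 2 h libraries were below and the 6 h library above both DMSO libraries, with log2 differences of -0.28 ± 0.17 and 0.28 ± 0.21.

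Some of these values rest on exons shared with other genes, and no strand setting of the counting is given in the sources used here. SLC7A11 overlaps the antisense gene SLC7A11-AS1 over 865 exonic bases, which the table listed at no more than 0.186 FPKM. SLC6A9 overlaps CCDC24 over 404 exonic bases on the other strand, SLC1A5 overlaps 2 such genes over 794, and SLC7A5 overlaps 1 over 271. Reads from such overlaps cannot be told apart from the partner's. Other symbols were also listed at the same locus as SLC38A2 (LOC102723757), SLC7A1 (LOC102724249), SLC7A5 (MIR6775), SLC6A9 (CCDC24) and SLC7A11 (LINC00616 and SLC7A11-AS1). What this sharing does to their values was not tested. SLC7A5 also has near-identical pseudogene copies, of which SLC7A5P1 was at 2.20 to 9.42 FPKM and SLC7A5P2 at 0.840 to 4.20 FPKM, so that the split of reads between these rows and SLC7A5 is uncertain.

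**Figure D5:**
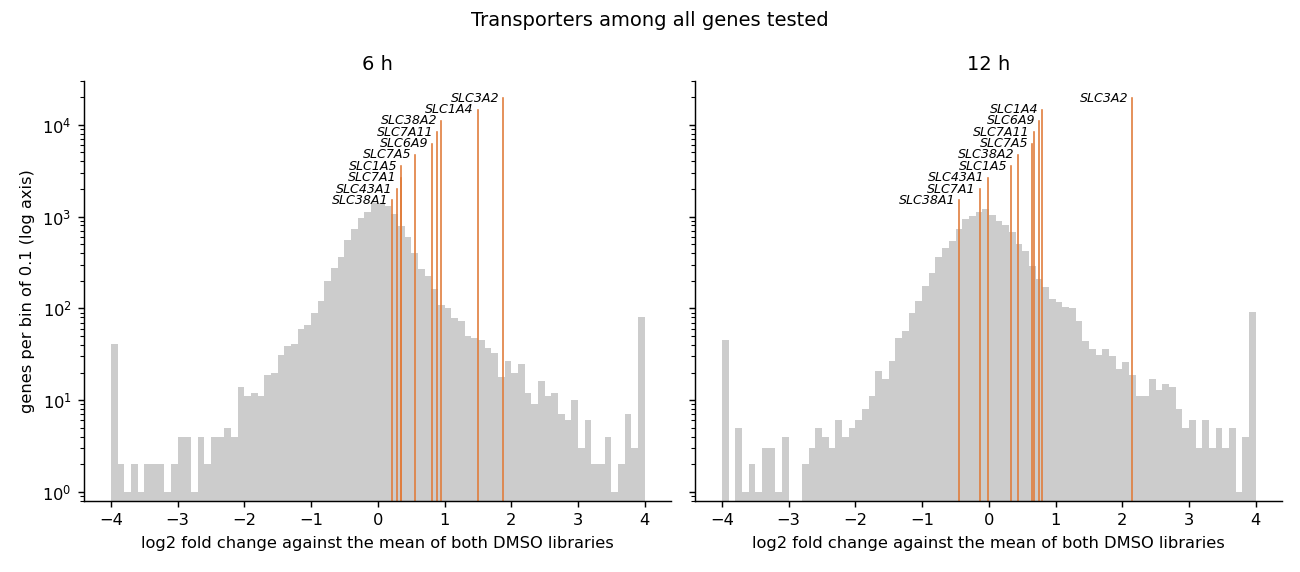
Number of genes tested (y axis, log scale, per 0.1 bin) by log2 difference from the mean of both DMSO libraries (x axis) at 6 h and 12 h, with values past 4 in either direction pooled in the end bins and orange lines at the 10 transporters. At 6 h all 10 lay above 0, from SLC38A1 (0.21) to SLC3A2 (1.88), and at 12 h 7 did.

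Other genes of the pathway were taken from lists by known function. Of 34 other amino acid transporters in the table, 15 reached a mean of 1 FPKM, and the rest were at no more than 0.839 FPKM in any library. None of the 15 passed the test at any time (0, 0 and 0), and their median log2 differences were 0.0079, -0.13 and -0.0017 at 2 h, 6 h and 12 h. At 12 h the lowest were SLC38A10 (-0.95) and SLC7A2 (-0.43), and the highest were SLC43A2 (0.47) and SLC1A1 (1.02), the neuronal and epithelial glutamate carrier. The sign depended on the DMSO library for SLC43A2 (1.31 against the first, -0.37 against the recovered) and SLC7A2 (-0.90 and 0.043). SLC1A1 was the 1 gene of the 15 more than 2-fold above the mean of both DMSO libraries, beside 6.48% of all genes. Against the first DMSO library alone 2 of the 15 were more than 2-fold higher (8.21% of all genes) and 0 lower (4.03%). Against the recovered one alone 0 were higher (7.01%) and 2 lower (7.56%). SLC1A1 was at 0.799 and 1.23 FPKM in DMSO and 2.12 FPKM at 12 h.

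Known ATF4 and amino acid response genes were all above the filter (29 of 29) and none passed the test. More than 2-fold above DMSO were 4, 9 and 7 of them at 2 h, 6 h and 12 h, beside the 2.32%, 5.66% and 6.48% of all genes, and none were more than 2-fold below, beside 0.662%, 3.1% and 3.76%. Their medians were 0.00018, 0.45 and 0.41. SESN2, a sestrin that restrains mTORC1 under amino acid shortage, was at 1.89 and 2.94 FPKM in DMSO, 8.77 and 9.40 after 2 h, 27.3 after 6 h and 38.6 after 12 h. CHAC1, which degrades glutathione, was at 0.738 and 2.08 FPKM in DMSO, 15.5 and 14.2 after 2 h, 31.2 after 6 h and 12.4 after 12 h. For both genes every treated library was far above DMSO, with log2 differences at 12 h of 3.97 (adjusted p = 0.149) and 3.21 (adjusted p = 0.467). The lowest of the list at 12 h were PCK2 (-0.75) and NUPR1 (-0.54).

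NRF2 targets and the enzymes of cystine and glutathione metabolism also held no gene that passed. Of 22 NRF2 targets tested, 2, 4 and 4 were more than 2-fold above DMSO at 2 h, 6 h and 12 h (2.32%, 5.66% and 6.48% of all genes), with medians of -0.020, 0.11 and 0.37. HMOX1, heme oxygenase, was at 36.65 and 36.05 FPKM in DMSO, 244.8 and 354.1 after 2 h, 772.7 after 6 h and 528.6 after 12 h (log2 difference 3.86 at 12 h, adjusted p = 0.126). UGDH followed at 1.41, and the lowest were ABCC3 (-0.89) and AKR1B10 (-0.56). Of the 11 cystine and glutathione enzymes, 1, 3 and 2 were more than 2-fold higher, beside the same shares of all genes, with medians of -0.025, 0.25 and -0.057. CHAC1, which is on this list too, and CTH, the enzyme that releases cysteine from cystathionine (1.02), were highest at 12 h, and CBS (-0.80) and CHAC2 (-0.44) lowest. CTH was at 1.67 against the first DMSO library but 0.36 against the recovered one.

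Of 14 regulators of transporter genes, 1, 3 and 2 were more than 2-fold above DMSO at 2 h, 6 h and 12 h, beside 2.32%, 5.66% and 6.48% of all genes, and none passed the test. ATF4 transcripts were at 153 and 202.4 FPKM in DMSO, 269.5 and 274.4 after 2 h, 342.9 after 6 h and 325.8 after 12 h, and every treated library was above both DMSO libraries (log2 difference 0.89 at 12 h, adjusted p = 0.510). DDIT3, which encodes CHOP, was at 13.95 and 46.3 FPKM in DMSO, 99.1 and 187.6 after 2 h, 202.7 after 6 h and 124.4 after 12 h. NFE2L2, which encodes NRF2, stayed between 58.5 and 75.7 FPKM in all 6 libraries. MYC was at 104.9 and 279 FPKM in DMSO, 225.3 and 183.9 after 2 h, 318.3 after 6 h and 363.1 after 12 h, so that its 2 h libraries fell within the DMSO range. BACH1 (-0.35) was lowest at 12 h, and MYC (1.09) and DDIT3 (2.29) were highest.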

How the data were processed

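RNA of 6 OVCAR5 libraries was sequenced. The submitters' processing notes and the paper's methods name Trim Galore, TopHat2 2.0.8, Cufflinks 2.1.1 and Cuffdiff 2.1.1, and both a mouse and a human build (hg38), although every locus given is human. Deposited by the authors were FPKM values (reads scaled by transcript length and library size) for both sides of 4 Cuffdiff comparisons, with fold changes, p-values and q-values of their own that were not used. All value columns could be tied to a sample or group (0 could not). The table holds no counts, so depth is known only in relative terms and no counting error can be given.

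The columns named for replicate 2 hold group means: no row above 0 in the first library (18195 rows for DMSO, 18722 for 2 h) was at 0 there. No such row fell more than 1% under a share of 0.5261 (DMSO) or 0.5093 (2 h) of the first library. Replicate 2 was recovered as (mean - share × first library) / share, on the assumption that both libraries had the same weight, a step that the paper does not describe. Remainders under 0.2% of the mean were set to 0. The 6 h and 12 h comparisons, scaled separately, were brought to the first through the shared DMSO library (factors 0.9724 and 0.994).

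The 1 row without a gene was dropped, rows of 1 symbol were summed, and genes averaging 1 FPKM or more were tested on log2(FPKM + 0.1), which understates differences of low genes. All 6 libraries entered 1 limma 3.58.1 fit (R 4.3.3, 4 group means, 2 residual and 1.48 prior degrees of freedom) without a replicate block, with Benjamini-Hochberg adjustment over all genes, after a test on simulated data. Other steps used numpy 2.4.6 and pandas 2.3.3 under Python 3.11.15. The members and lists were chosen with earlier results of these data known. Every member was named, with the ends of each list at 12 h and ATF4, DDIT3, NFE2L2 and MYC, except 1 list end that is not reported here. Alternatives were other pseudocounts, filters, scalings, treatment of repeated symbols, an intensity trend, a replicate block, the authors' mean columns and leaving out libraries.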

Additional observations from a re-analysis of the deposited data

Results flagged for a closer look

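SLC43A1, the transporter of branched-chain amino acids, differed in direction between time points: it was -0.28 on the log2 scale against both DMSO libraries at 2 h, with both libraries below DMSO, and 0.28 at 6 h, with the library above both. The 6 h library exceeded the 2 h mean by 0.57 (limma, unadjusted p = 0.0650, adjusted p = 1), and 6 h is a single library.

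The pseudogene SLC7A5P2, which is no member of the transporter set, was at 0.840 and 0.938 FPKM in DMSO, 1.70 and 2.26 after 2 h, 4.20 after 6 h and 3.399 after 12 h. Its lowest SpiD7 library, at 1.70 FPKM, was above its highest DMSO library, and reads shared with SLC7A5 cannot be told apart here.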

How the results depend on the processing

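With 1 library each at 6 h and 12 h and 2 in the other groups, the test has few degrees of freedom, and everything that involves a recovered library rests on the subtraction. No transporter was called under any alternative fit at any time (0). Of 353 values recomputed without leaving out a single replicate, which include those without both recovered libraries, 348 were held to be the same. They stayed on their side of the threshold or, where no test was made, moved by less than the replicate spread or, as counts, differed little. These include 2 values that changed sign: the median of the transporters at 2 h without both recovered libraries (-0.061) and the SLC7A11 to SLC7A5 ratio at 12 h with a pseudocount of 1 (-0.023, log2 difference from DMSO). The number of transporters more than 2-fold higher at 6 h was 1 when a mean FPKM of at least 5 was required, because SLC1A4 then left the set. Without both recovered libraries this number was 3, with SLC38A2 added, which is counted among the 348. Median-ratio scaling turned the sign of SLC7A1 (-0.015) and SLC1A5 (-0.0022) at 2 h and of SLC43A1 at 12 h (0.028, and 0.048 with upper-quartile scaling), all values near 0. The authors' mean columns gave 0, 2 and 1 transporters more than 2-fold higher.

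Leaving out 1 replicate gave 0 to 2 transporters more than 2-fold higher at 2 h, 3 to 4 at 6 h and 1 to 5 at 12 h, the highest counts without the first DMSO library (2, 4 and 5). The median at 2 h then ranged from -0.20 to 0.42 and the SLC7A11 to SLC7A5 ratio at 12 h from -0.34 to 0.38. The sign of the log2 difference depended on the replicate left out for SLC7A11 (-0.49 to 1.08), SLC7A5 (-0.62 to 0.27), SLC7A1 (-0.46 to 0.49), SLC1A5 (-0.12 to 0.18), SLC38A1 (-0.32 to 0.28) and SLC6A9 (-0.21 to 0.83) at 2 h, for SLC7A1 (-0.13 to 0.82) and SLC38A1 (-0.087 to 0.51) at 6 h, and for SLC7A11 (-0.11 to 1.45), SLC7A1 (-0.61 to 0.33) and SLC43A1 (-0.11 to 0.099) at 12 h.

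The DMSO and 2 h libraries share replicate numbers 1 and 2. The correlation of their replicate differences over genes was 0.369, but with 2 pairs and no label that ties the numbers to a culture they share only a number. With the replicate number as a block, 0 transporters were called at 2 h, and the lowest adjusted p was 0.347 (SLC3A2, unadjusted 0.0365).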
